A study of Homo sapiens with 6 samples.

Results

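The HLA class I antigen presentation genes described here are 9 genes of the 63677 in the deposited count table: HLA-B, HLA-C, HLA-E, HLA-F, B2M, TAP1, TAP2, TAPBP and NLRC5. They are taken by name as a functional group, by a rule that uses no measured value. Each symbol was joined to the count table by its Ensembl gene identifier, and where a symbol had several identifiers the one with most counts was used. The other 42 identifiers that carry these symbols held 0 counts in all 6 samples. All 9 genes passed the filter on low counts, the lowest single count being 90, for HLA-F.

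The study measured RNA after guides for Cas9 against MYC were induced in RPMI-8402, an established human cell line from a T-lineage acute lymphoblastic leukaemia (T-ALL). The doxycycline group held 3 samples in which guide RNAs against MYC were switched on with doxycycline, and the DMSO group held 3 samples that received the solvent. Treatment lasted 72 hours. Cells of both groups stably expressed Cas9, carried the genotype label MYC_KO and grew in serum free of tetracycline. The labels name no cells given doxycycline without guides, so an effect of the drug and of the guides cannot be told apart. Nothing in them says that the replicates came from separate cultures. The p-values therefore measure sample-to-sample spread that may be purely technical. Total counts ran from 25819386 to 26214598 in doxycycline samples and from 23121255 to 25412493 in DMSO samples.

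Class I molecules carry peptides from inside the cell to its surface, where T cells and natural killer cells read them. A heavy chain encoded by an HLA gene pairs with the light chain beta-2-microglobulin, and a peptide completes the complex. The peptides are cut mainly by the proteasome, enter the endoplasmic reticulum through the TAP transporter and are loaded with the help of tapasin. NLRC5 is the transactivator of class I genes, and interferon gamma is a main inducer of the whole pathway. T cell leukaemia cells, like most nucleated cells, carry class I molecules.

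MYC itself (ENSG00000136997) stood at 459, 431 and 431 CPM (read counts divided by the TMM-scaled library size) in doxycycline replicates 1, 2 and 3. The DMSO samples had 409, 422 and 407 CPM. The gene-level count of MYC was therefore not lower in doxycycline samples, at a log2 fold change of 0.09 (95% interval -0.01 to 0.19, edgeR adjusted p = 0.160). A count over the whole gene does not show whether the gene was cut, so it does not check the labels, and every direction below is that of the samples labelled doxycycline against those labelled DMSO.

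Of the 9 genes, 2 rose in doxycycline samples, HLA-E and NLRC5, and 0 fell (edgeR quasi-likelihood test, Benjamini-Hochberg adjusted p under 0.05 over all 15492 tested genes). Over all tested genes 13.8% were called higher and 15.5% lower, so the count of 2 is no result about the group as such. In bulk RNA, fewer cells of a type and less RNA per cell cannot be told apart. At an unadjusted p under 0.05, 4 of the 9 were higher and 1 was lower, against 19.1% higher and 21.0% lower of all tested genes. All 9 differences were small, none over 0.26 on the log2 scale in either direction. The median log2 fold change was 0.10 over the 9 genes and 0.00 over all tested genes. The CPM of the 2 groups did not overlap for 4 of the 9 with doxycycline higher and for 2 with doxycycline lower, against 20.7% and 21.0% of all tested genes. In the authors' deposited table, which comes from DESeq2, the same 2 of 9 genes were called higher and 0 lower. DESeq2 run on the deposited counts gave the same values as that table, so the 2 are 1 result. Of all genes with an adjusted p-value there, 25.4% were called, 9.79% higher and 15.6% lower.

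**Figure D1:**
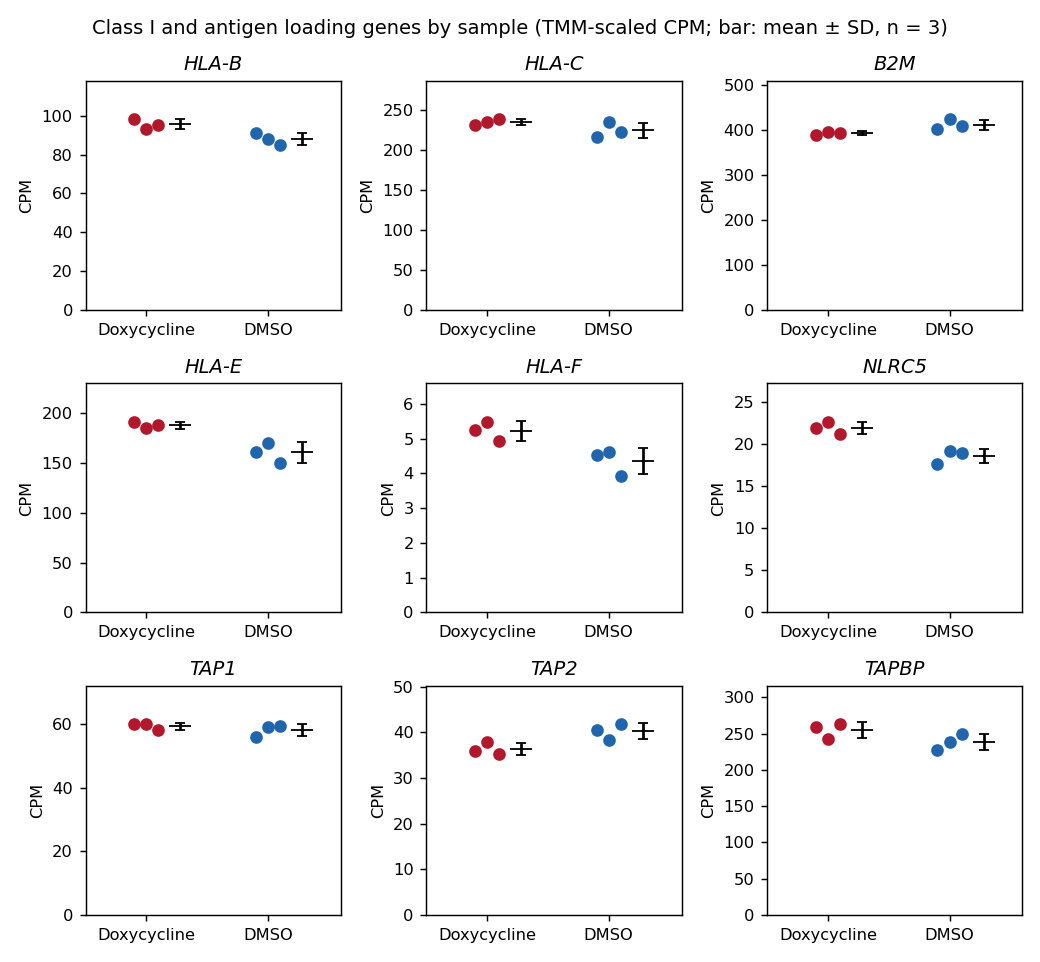
CPM of each gene in the 3 doxycycline samples (red, left) and the 3 DMSO samples (blue, right), with bars for mean ± SD (n = 3 each) and a vertical axis from 0. For HLA-E the doxycycline samples lie between 184 and 191 CPM and the DMSO samples between 149.9 and 170.1 CPM, and for HLA-C, TAP1 and TAPBP the groups overlap.

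HLA-C (ENSG00000204525, chromosome 6) encodes a classical heavy chain that presents peptides to T cells and is also read by inhibitory receptors of natural killer cells. It stood at 231, 234 and 238 CPM in doxycycline replicates 1, 2 and 3, and at 216, 235 and 222 CPM in DMSO replicates 1, 2 and 3. The groups overlapped, since DMSO replicate 2 lay above 2 of the doxycycline samples. Its log2 fold change was 0.06 (SE 0.049, 95% interval -0.04 to 0.16, edgeR adjusted p = 0.357).

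HLA-B (ENSG00000234745, chromosome 6) encodes the other classical heavy chain of the group. HLA-B had 98.2, 93.2 and 95.4 CPM in doxycycline samples, against 91.1, 88.2 and 85.0 CPM in DMSO samples. All doxycycline samples lay above all DMSO samples, by a narrow margin, and the log2 fold change was 0.12 (SE 0.051, 95% interval 0.01 to 0.22). The adjusted p was 0.0855 by edgeR, so HLA-B was not called. Upper-quartile scaling made it a call, at 0.17 with an edgeR adjusted p of 0.0172, as did unscaled library sizes, at 0.16 with 0.0201. Under upper-quartile scaling 4 of the 9 genes were called higher and 0 lower, where 18.5% of all tested genes were called higher and 10.2% lower.

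B2M (ENSG00000166710, chromosome 15), which encodes the light chain shared by all class I molecules, stood at 389, 397 and 395 CPM in doxycycline samples. Its DMSO samples had 403, 425 and 409 CPM. The groups did not overlap and doxycycline was lower, but the difference did not pass the test, at a log2 fold change of -0.07 (SE 0.048, 95% interval -0.16 to 0.03, edgeR adjusted p = 0.315). As a fold this interval runs from 0.892 to 1.02.

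HLA-E (ENSG00000204592, chromosome 6) is a non-classical heavy chain that mostly presents peptides from the signal sequences of other class I chains and is the ligand of the NKG2A receptor of natural killer cells. It was measured at 191, 184 and 188 CPM in doxycycline replicates 1, 2 and 3. In DMSO replicates 1, 2 and 3 it was at 161, 170.1 and 149.9 CPM. The lowest doxycycline sample was above the highest DMSO sample. Means were 188 ± 3.41 CPM in doxycycline samples and 160.3 ± 10.1 CPM in DMSO samples (SD, n = 3 each), a 1.17-fold rise with a 95% interval of 1.09 to 1.26 (log2 fold change 0.23, SE 0.051, edgeR adjusted p = 0.00162). HLA-E alone of the 9 genes was called under each of the 17 alternatives, with log2 fold changes from 0.18 to 0.28 and adjusted p from 0.000256 to 0.0109 (edgeR and DESeq2). Among the 17, summing all identifiers of a symbol left its counts unchanged.

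HLA-F (ENSG00000204642, chromosome 6), a further non-classical heavy chain with restricted expression, was the least abundant of the 4 heavy chains among the 9 genes. It had 5.24, 5.49 and 4.93 CPM in doxycycline samples, against 4.52, 4.63 and 3.93 CPM in DMSO samples. The groups did not overlap, and the log2 fold change of 0.26 was the largest of the 9, yet with an SE of 0.12 and a 95% interval of 0.00 to 0.51 it did not pass (edgeR adjusted p = 0.118). Counts of 90 to 144 per sample stood behind these values. HLA-F-AS1, annotated on the opposite strand across HLA-F, was higher at 1.08 ± 0.174 CPM in doxycycline samples than at 0.648 ± 0.0711 CPM in DMSO samples (SD, n = 3 each; log2 fold change 0.73, edgeR adjusted p = 0.0431). It held 18.2% as many counts as HLA-F, and as the strand setting of the counting was not given, reads of this pair cannot be told apart with certainty. The HLA-F-AS1 call was lost in 9 of 17 alternatives, among them the replicate block (edgeR adjusted p = 0.0550) and DESeq2 (0.183), over a range of 0.0219 to 0.183.

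NLRC5 (ENSG00000140853, chromosome 16), the transactivator that acts on class I promoters, stood at 21.9, 22.7 and 21.3 CPM in doxycycline samples. DMSO samples had 17.7, 19.2 and 19.0 CPM. All doxycycline samples were higher, with means of 22.0 ± 0.709 CPM in doxycycline samples and 18.6 ± 0.831 CPM in DMSO samples (SD, n = 3 each). This was a 1.18-fold rise with a 95% interval of 1.07 to 1.30 (log2 fold change 0.24, SE 0.070, edgeR adjusted p = 0.0115). The authors' deposited table gives NLRC5 a log2 fold change of 0.23 with an adjusted p-value of 0.0497. NLRC5 no longer passed when DMSO replicate 1 was left out (0.20, edgeR adjusted p = 0.0738) or doxycycline replicate 2 was (0.21, 0.0536), nor with GC content and length taken into account (0.05, 0.595).

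TAP1 (ENSG00000168394, chromosome 6) and TAP2 (ENSG00000204267, chromosome 6) encode the paired subunits of the peptide transporter. TAP1 had 60.01, 60.04 and 58.2 CPM in doxycycline samples and 55.9, 59.2 and 59.3 CPM in DMSO samples. These groups overlapped, and the log2 fold change was 0.03 (95% interval -0.08 to 0.14, edgeR adjusted p = 0.708). TAP2 had 35.8, 37.9 and 35.4 CPM in doxycycline samples and 40.5, 38.4 and 41.8 CPM in DMSO samples. For TAP2 all doxycycline samples were lower, at a log2 fold change of -0.15 (95% interval -0.27 to -0.02), which did not pass (edgeR adjusted p = 0.0708). TAP2 was called lower without DMSO replicate 2 (-0.18, edgeR adjusted p = 0.0323) and with GC content and length taken into account (-0.18, 0.0199).

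TAPBP (ENSG00000231925, chromosome 6) encodes tapasin, which bridges the transporter and the empty class I molecule. It had 259, 243 and 263 CPM in doxycycline samples, against 227, 238 and 249.6 CPM in DMSO samples. DMSO replicate 3 lay above doxycycline replicate 2, so the groups overlapped, and the log2 fold change was 0.10 (95% interval -0.01 to 0.20, edgeR adjusted p = 0.157). TAPBP was a call at 0.14 under upper-quartile scaling, with an edgeR adjusted p of 0.0356, and at 0.14 under unscaled library sizes, with 0.0377.

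Read per kilobase of annotated exon, so that genes of different length can be set side by side, HLA-C was the most abundant, at 93.5 ± 1.36 CPM per kilobase in doxycycline samples and 89.5 ± 3.73 in DMSO samples (SD, n = 3 each). B2M followed at 64.8 ± 0.695 and 67.8 ± 1.87 CPM per kilobase in doxycycline and DMSO samples. HLA-E stood at 63.1 ± 1.146 CPM per kilobase in doxycycline samples and 53.9 ± 3.41 in DMSO samples. In doxycycline samples the levels of B2M and HLA-E overlapped, from 64.0 to 65.3 and from 61.9 to 64.2 CPM per kilobase. In DMSO samples they did not, at 66.3 to 69.9 for B2M and 50.4 to 57.2 for HLA-E.

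Lower in the same order stood TAPBP at 50.4 ± 2.12 CPM per kilobase in doxycycline samples and 47.1 ± 2.21 in DMSO samples, and HLA-B at 31.3 ± 0.812 and 28.9 ± 1.01. TAP1 had 12.4 ± 0.224 and 12.1 ± 0.407 CPM per kilobase, and TAP2 5.69 ± 0.211 and 6.30 ± 0.272. NLRC5, at 1.77 ± 0.0573 and 1.502 ± 0.0671, and HLA-F, at 1.202 ± 0.0641 and 1.004 ± 0.0866, were the lowest, each again in doxycycline and then DMSO samples (SD, n = 3 each). Exon lengths came from GENCODE 29, an annotation of another genome build than the counts, and they weigh on the order. With the longest transcript as length, B2M led at 164 CPM per kilobase in doxycycline samples and 172 in DMSO samples, ahead of HLA-C at 125 and 119, and HLA-E was far below B2M, at 72.1 and 61.6.

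Class I promoters are known for a conserved set of boxes near the start, with a CRE-type element and an inverted CCAAT element, on which the RFX proteins, CREB or ATF factors, NF-Y and NLRC5 assemble. Many genes of the pathway also carry repeats that interferon regulatory factors bind. The stretches below were read from RefSeq promoter windows (build GRCh38.p14, 250 bases before to 50 after the start), which matched 7 of the 9 genes, all but HLA-E and NLRC5, and are given because they hold these elements. Capitals mark letters that match a searched motif on either strand. The CCAAT box appears as ATTGG when it lies on the other strand. The CRE-type letters searched were TGACG. The interferon-type repeat searched was GAAA followed by any 2 bases and then GAAA again, which reads as TTTC on the other strand. TAP1 has 2 entries, of which the first is shown.
HLA-B, chr6:31357220-31357309, minus strand: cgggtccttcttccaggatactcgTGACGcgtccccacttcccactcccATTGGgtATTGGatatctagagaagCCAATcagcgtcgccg
HLA-C, chr6:31272133-31272222, minus strand: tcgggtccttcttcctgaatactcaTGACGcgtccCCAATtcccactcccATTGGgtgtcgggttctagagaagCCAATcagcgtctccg
HLA-F, chr6:29723304-29723393, plus strand: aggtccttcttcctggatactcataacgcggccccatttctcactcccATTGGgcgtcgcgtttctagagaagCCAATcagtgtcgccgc
B2M, chr15:44711367-44711476, plus strand: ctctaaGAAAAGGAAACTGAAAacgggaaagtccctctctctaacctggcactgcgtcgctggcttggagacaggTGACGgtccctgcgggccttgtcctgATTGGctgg
TAP1, chr6:32853805-32853854, minus strand: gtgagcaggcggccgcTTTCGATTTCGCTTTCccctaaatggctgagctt
TAP2, chr6:32838760-32838819, minus strand: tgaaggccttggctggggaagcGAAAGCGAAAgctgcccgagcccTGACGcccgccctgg
TAPBP, chr6:33314079-33314138, minus strand: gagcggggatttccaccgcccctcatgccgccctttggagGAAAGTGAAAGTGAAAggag

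In the stretches of HLA-B and HLA-C, TGACG stands before an ATTGG match and a later CCAAT match, at nearly the same positions. B2M has TGACG before ATTGG too. The other matches differ, as HLA-B has a further ATTGG match after the first. HLA-C has a CCAAT match between TGACG and ATTGG, and another ATTGG match before the stretch shown. HLA-F has the ATTGG and CCAAT matches but no TGACG in this window. The GAAA repeat was found in 5 of the 7 windows, in HLA-F outside the stretch shown, with overlapping copies in B2M, TAP1 and TAPBP, against 3.57% of all 35116 promoter windows. CCAAT was in 5 of 7 windows, in TAP1 outside the stretch shown, against 34.6% of all, and TGACG in 4 of 7, against 24.6%. CACGTG, the E-box letters that MYC and MAX are known to bind, were in 0 of the 7 windows and in 7.26% of all. A match is a description of letters, and a missing match says only that these letters are not in the window.

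Fold changes in these samples followed the GC content of genes, and this touches most of the 9. Across 15036 tested genes with a known transcript sequence, Spearman's rho between GC content and log2 fold change was 0.41, where genes share libraries and are not independent replicates. In the range of 55% to 60% GC, 25.2% of 2272 genes were called higher and 5.37% lower, with a median log2 fold change of 0.11. HLA-B, HLA-F, TAP1, TAPBP and NLRC5 fall in that range. HLA-C lies at 62.7% GC, and from 60% up 35.2% of genes were called higher. HLA-E lies at 54.8%, where the range of 50% to 55% had 15.1% called higher, and TAP2 at 49.1%, where 15.9% were called lower. B2M lies at 40.6%, where the range of 40% to 45% had a median of -0.08, with 4.36% of genes called higher and 25.0% lower.

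**Figure D2:**
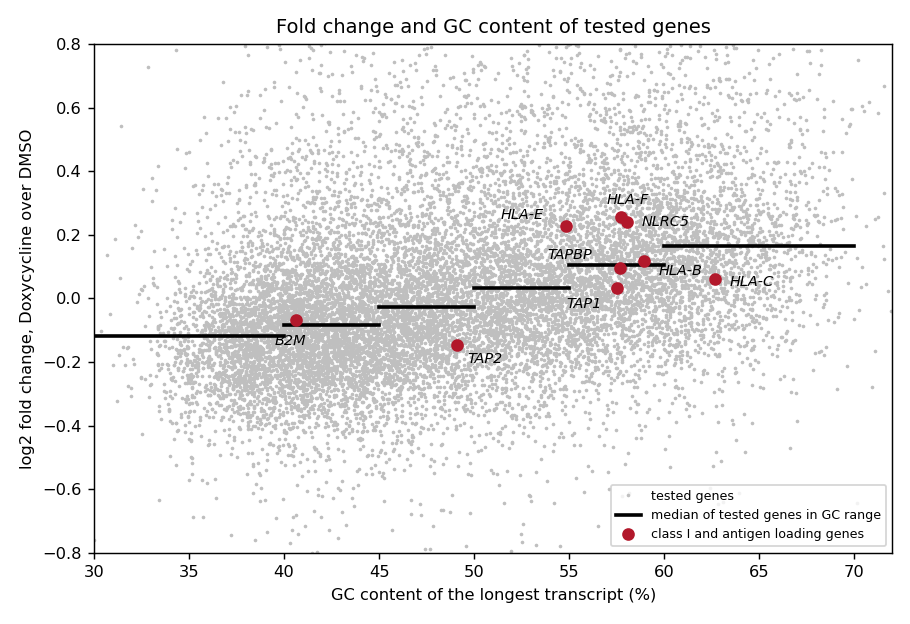
Log2 fold change of doxycycline over DMSO (vertical axis) against GC content of the longest transcript in percent (horizontal axis) for tested genes (grey), with the median per GC range (black lines) and the 9 genes (red). The medians climb from -0.12 under 40% GC to 0.16 from 60% up. HLA-E, HLA-F and NLRC5 lie above the line of their range, and HLA-B and B2M just above theirs. TAP2, HLA-C and TAP1 lie below their lines, and TAPBP just below its own. A further 434 genes lie outside the plotted axes.

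With a trend on GC content and length fitted in each library and entered in the edgeR model, HLA-E remained called at a log2 fold change of 0.20 (SE 0.040, edgeR adjusted p = 0.00154). NLRC5 was then at 0.05 (95% interval -0.08 to 0.19) and was not called, and TAP2 was called lower. In that model 10.7% of tested genes were called higher and 11.3% lower. The sign changed for HLA-C (-0.03), TAP1 (-0.05) and TAPBP (-0.01), each with an interval across 0. It changed for B2M too, to 0.11 (SE 0.040, 95% interval 0.03 to 0.19, edgeR adjusted p = 0.0524). HLA-B at 0.09 and HLA-F at 0.24 kept their sign and were not called. A fitted trend of this kind also takes out real changes that track GC content or length, and which of the 2 models is nearer to the cells was not tested.

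**Figure D3:**
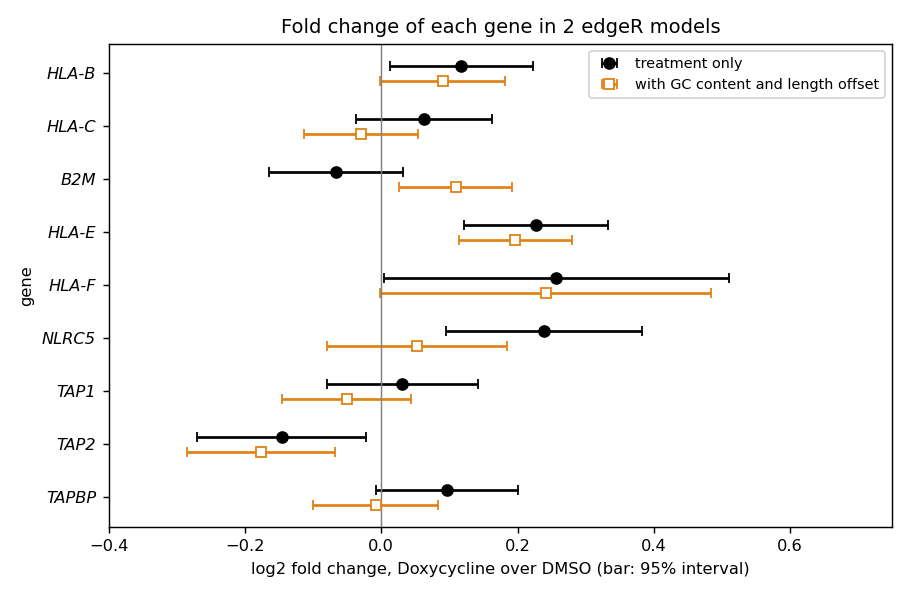
Log2 fold change of doxycycline over DMSO for each gene with its 95% interval, unadjusted for the number of genes, from the edgeR model with treatment only (black) and with the GC content and length offset (orange, open squares). HLA-E stays above 0 in both models, TAP2 stays below 0 in both, NLRC5 moves to 0.05 and B2M moves from below to above 0.

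Ratios of counts within a sample do not depend on library scaling, and 5 pairs were compared, chosen after the values had been seen. HLA-E over HLA-C was 0.826, 0.788 and 0.788 in doxycycline samples and 0.744, 0.725 and 0.674 in DMSO samples. HLA-E over B2M was 0.491, 0.464 and 0.475 in doxycycline samples and 0.399, 0.400 and 0.366 in DMSO samples. HLA-E was thus higher against both HLA-C and B2M in every doxycycline sample than in every DMSO sample. TAP1 over TAP2 was 1.67, 1.58 and 1.64 in doxycycline samples and 1.38, 1.54 and 1.42 in DMSO samples, so every doxycycline sample lay above every DMSO sample. NLRC5 over HLA-C had means of 0.0937 ± 0.00391 in doxycycline samples and 0.0829 ± 0.00216 in DMSO samples (SD, n = 3 each). For each of the 5 ratios the groups did not overlap and the two-sided exact permutation test gave p = 0.10, also after Benjamini-Hochberg adjustment, which is the smallest p that 3 against 3 samples allow. The ratios are free of scaling but not of the GC trend, and HLA-C and B2M lie at opposite ends of the GC range. Log2 fold changes of HLA-E, HLA-C and B2M were 0.23, 0.06 and -0.07 with treatment only. With the GC content and length offset they were 0.20, -0.03 and 0.11, so HLA-E and B2M lay closer together.

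The fifth ratio set TAP1 against PSMB9, a catalytic subunit of the immunoproteasome that lies beside it in the opposite direction. TAP1 over PSMB9 was 1.64, 1.66 and 1.52 in doxycycline samples and 1.24, 1.29 and 1.34 in DMSO samples. PSMB9 fell to 37.0 ± 1.195 CPM in doxycycline samples, against 44.95 ± 0.838 CPM in DMSO samples (SD, n = 3 each; log2 fold change -0.28, edgeR adjusted p = 0.000749). Their annotated spans overlap in GENCODE 29, so reads at the shared end are uncertain. PSMB9 held 69.4% as many counts as TAP1. PSMB8-AS1, whose span also overlaps TAP1 on the opposite strand, held 16.3% as many, so the same limit applies to TAP1 over TAP2.

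Of 5 tested genes of the immunoproteasome and its PA28 activator, 4 fell and 0 rose, with a median log2 fold change of -0.21. Of all tested genes, 15.5% were called lower and 13.8% higher. PSMB9 fell by 0.28, PSME2 by 0.22, PSMB8 by 0.21 and PSME1 by 0.20, and PSMB10 was at -0.06 and was not called. PSMB8, PSMB9 and PSMB10 are the catalytic subunits that interferon swaps into the proteasome, and PSME1 and PSME2 form PA28. All 3 catalytic subunits of the constitutive proteasome fell too, PSMB7 by 0.34, PSMB5 by 0.29 and PSMB6 by 0.21. With GC content and length taken into account, the same numbers of genes fell in both lists, 4 and 3. Medians were then -0.20 and -0.19, and of all tested genes 11.3% were called lower and 10.7% higher. Without doxycycline replicate 2, PSMB6 did not pass (edgeR adjusted p = 0.0579), which left 2 of the 3.

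Of 15 genes that supply, trim or edit peptides or fold the heavy chain, 4 fell and 1 rose, with a median of -0.08. Of all tested genes, 15.5% were called lower and 13.8% higher. SEC61B, part of the channel into the endoplasmic reticulum, fell by 0.28, and HSPA5, its main HSP70 chaperone, by 0.23. CANX, the lectin chaperone that binds new heavy chains, fell to 396 ± 11.4 CPM in doxycycline samples, against 451 ± 14.1 CPM in DMSO samples (SD, n = 3 each; log2 fold change -0.19, edgeR adjusted p = 0.00510). SEC61G fell by 0.30, and TAPBPL, a tapasin relative that edits peptides, rose by 0.22. With GC content and length taken into account, 3 of the 15 fell, HSPA5 by 0.17, the cytosolic peptidase THOP1 by 0.20 and the protease SPPL3 by 0.13, and neither CANX, SEC61B, SEC61G nor TAPBPL passed. TAPBPL also did not pass without DMSO replicate 1, DMSO replicate 3 or doxycycline replicate 1, or by DESeq2. ERAP1 and ERAP2, which trim peptides, stood at -0.08 and -0.04 and did not pass.

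Among 16 tested transcription factors that act on class I genes, 4 rose and 1 fell, with a median of 0.07. Of all tested genes, 13.8% were called higher and 15.5% lower. IRF7 rose to 22.7 ± 1.45 CPM in doxycycline samples, against 16.9 ± 0.872 CPM in DMSO samples (SD, n = 3 each; log2 fold change 0.43, edgeR adjusted p = 0.000123). IRF9, a subunit of a transcription factor complex of the interferon response, rose by 0.67 at 3.51 ± 0.489 CPM in doxycycline samples and 2.20 ± 0.0679 CPM in DMSO samples. STAT2 and IRF3 rose by 0.20 each. NFYB, a subunit of the factor that binds CCAAT, fell by 0.30. RFX5 and IRF1 stood at 0.07 and 0.08 and did not pass. With GC content and length taken into account, IRF7 rose by 0.28, IRF9 by 0.67, STAT2 by 0.22, RFXAP by 0.34 and NFYA by 0.13, while IRF3 and NFYB did not pass. Without DMSO replicate 1 or DMSO replicate 2, 2 of the 16 were called lower. IRF8 held 0 counts in all samples.

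Of 9 genes of interferon gamma signalling 1 fell and 0 rose, against 15.5% and 13.8% of all tested genes, with a median of 0.02. The gene that fell was PTPN2, a phosphatase that dampens JAK and STAT signals, by 0.22, and it did not pass with GC content and length taken into account (-0.07, edgeR adjusted p = 0.338). In that model IFNGR1, a receptor chain, rose by 0.37 and JAK1 by 0.11. Upper-quartile scaling called 4 of the 9 higher, unscaled library sizes 3, and the fit without DMSO replicate 2 called 1. Of all tested genes these fits called higher 18.5%, 2758 of 15492 and 2022 of 15955, in the same order. Of 11 genes tied to class I silencing or turnover, 3 fell and 1 rose, against 15.5% and 13.8% of all tested genes. EED and SUZ12, subunits of the Polycomb complex that can silence class I genes, both fell by 0.24, and UBE2G2, a ubiquitin-conjugating enzyme, by 0.15, while SYVN1 rose by 0.14. The partner EZH2 stood at -0.04 and did not pass. None of these 4 passed with GC content and length taken into account, where 0 of 11 were called, against 22.0% of all tested genes. SYVN1 did not pass in 9 of 17 alternatives, among them the replicate block (edgeR adjusted p = 0.0564), no filter (0.102), and the fits without DMSO replicate 1 or any one doxycycline replicate, and without doxycycline replicate 1 only 1 of the 11 was called lower.

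Among 10 tested class I-like genes and ligands of natural killer receptors, 2 rose and 0 fell, with a median of 0.22. Of all tested genes, 13.8% were called higher and 15.5% lower. ULBP2, a ligand of NKG2D, rose by 0.49 at 2.90 ± 0.0711 CPM in doxycycline samples and 2.08 ± 0.509 CPM in DMSO samples. MR1, which presents vitamin metabolites, rose by 0.24 at 14.8 ± 0.812 and 12.5 ± 1.43 CPM in doxycycline and DMSO samples (SD, n = 3 each). The MR1 groups overlapped, and MR1 did not pass with GC content and length taken into account (edgeR adjusted p = 0.0629). In that model ULBP2 rose by 0.65 and PROCR by 0.61. Without DMSO replicate 1, doxycycline replicate 1 or doxycycline replicate 2, 0 of these genes were called, without DMSO replicate 2 there was 1, and by DESeq2 0.

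Class II genes gave a clear contrast of level. Only 3 of 15 passed the filter, and HLA-DRA held 1 count, HLA-DRB1 10 and CD74, the invariant chain, 12 over all 6 samples. HLA-DMA, the highest, stood at 4.10 ± 0.261 CPM in doxycycline samples and 3.79 ± 0.429 CPM in DMSO samples, and HLA-DOB at 0.770 ± 0.215 and 0.661 ± 0.116 CPM (SD, n = 3 each). Of the 3, 0 were called. Class I pseudogenes were as low, with 4 of 12 tested and 0 called. HLA-H, a near copy of the classical genes, stood at 2.98 ± 0.413 CPM in doxycycline samples and 2.40 ± 0.401 CPM in DMSO samples, and HLA-K at 1.22 ± 0.175 and 1.45 ± 0.427 CPM (SD, n = 3 each).

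Among 11 tested neighbours of the 9 genes, 3 rose and 0 fell, against 13.8% and 15.5% of all tested genes, with a median of 0.02. RGL2, near TAPBP, rose by 0.36, at 24.6 ± 0.737 CPM in doxycycline samples and 19.2 ± 0.916 CPM in DMSO samples (SD, n = 3 each). HCG27, a noncoding gene near HLA-C, rose by 0.57, and HLA-F-AS1, given above, was the weakest of these calls. Called higher were 2 of 11 with the replicate block, with DESeq2, without DMSO replicate 2, DMSO replicate 3 or doxycycline replicate 2, and without doxycycline replicate 1 and DMSO replicate 2 together, and 2 of 13 with no filter. With GC content and length taken into account these 3 rose and BRD2 fell by 0.12.

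**Figure D4:**
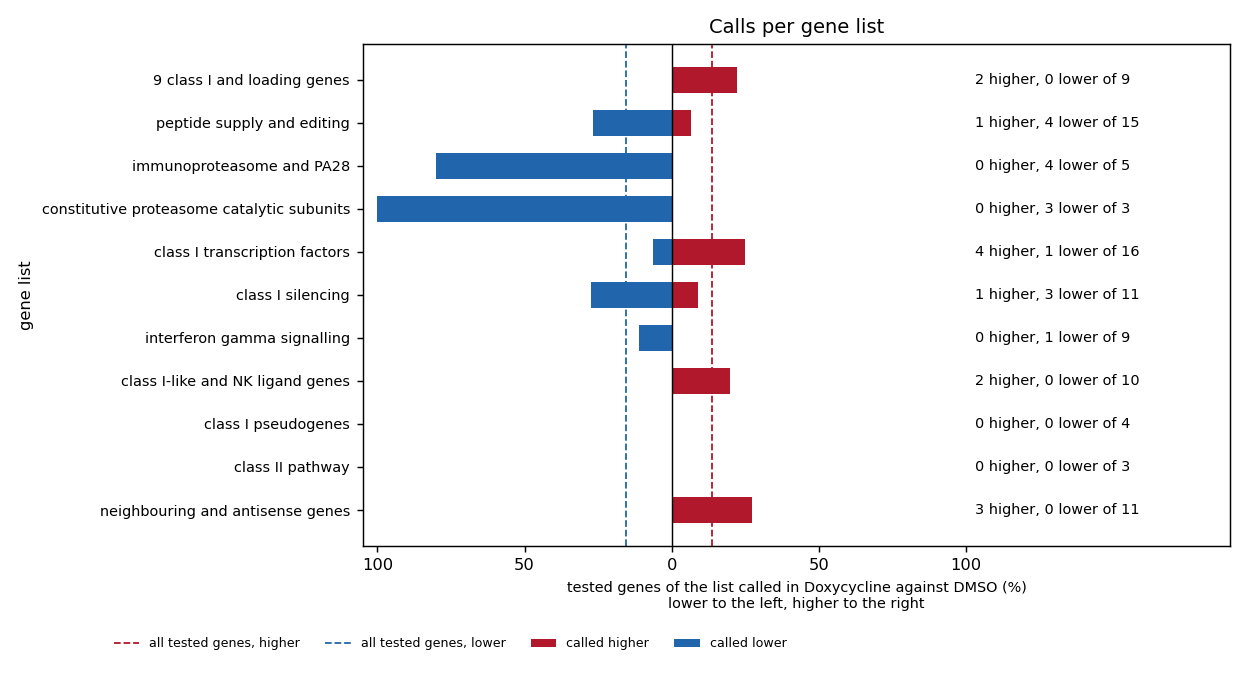
Share of tested genes in each list called lower (blue, to the left) or higher (red, to the right) in doxycycline against DMSO samples, in percent, with the counts in text and dashed lines for all tested genes at 15.5% lower and 13.8% higher. The proteasome lists lie far to the lower side, at 4 of 5 and 3 of 3, while the 9 class I and loading genes have 2 higher and 0 lower.

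The 5 genes below, none of them in the group, had the pattern over the 6 samples most like the mean pattern of the 9 genes. They were found among 9663 genes whose log2 CPM averaged 3 or more. Likeness was the Pearson correlation of log2 CPM with the mean of the standardised log2 CPM of the 9. Closest were TPBG at 0.998, RING1 at 0.996, SEMA4B at 0.993, PARP10 at 0.992 and FXYD6 at 0.990. Of these, SEMA4B, PARP10 and FXYD6 rose, by 0.22, 0.23 and 0.28 on the log2 scale, and TPBG and RING1 did not pass. With GC content and length taken into account, SEMA4B (0.07, edgeR adjusted p = 0.357), PARP10 (0.03, 0.622) and RING1 (0.02, 0.733) did not pass. FXYD6 (0.22, 0.0207) and TPBG (0.21, 0.0497) passed in that model. The mean pattern was highest in the 3 doxycycline samples, at 0.42, 0.42 and 0.27 in replicates 1, 2 and 3. In DMSO replicates 1, 2 and 3 it was -0.75, 0.04 and -0.40, so DMSO replicate 2 stood nearest to the doxycycline samples. Not all of the 9 followed this mean, as B2M and TAP2 were lower in every doxycycline sample than in every DMSO sample. The correlations are a description over 6 samples that form 2 groups and share the same libraries.

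T-ALL markers were present at high levels for some genes, CD3E at 945 ± 65.7 CPM in doxycycline samples and 976 ± 53.2 CPM in DMSO samples and LMO1 at 265 ± 14.7 and 265 ± 5.72 CPM (SD, n = 3 each). Others were low, RAG1 at 1.70 ± 0.290 and 2.04 ± 0.190 CPM, and CD1A held 41 counts in all. Of 14 such markers 13 were tested, and 3 rose and 1 fell, against 13.8% and 15.5% of all tested genes. CD3E, CD3D, LCK, TAL1 and LMO1 did not pass the test, CD7 rose by 0.48, NOTCH1 by 0.35 and CD5 by 0.23, and CD3G fell by 0.24. With GC content and length taken into account, CD7 rose by 0.33, CD2 by 0.19 and CD5 by 0.14. NOTCH1 (0.06, edgeR adjusted p = 0.246) and CD3G (-0.07, 0.236) did not pass in that model. The summed level of the T-ALL markers was 3633 to 3793 CPM in doxycycline samples and 3414 to 3515 CPM in DMSO samples. B cell markers summed to 16.2 to 17.2 CPM in doxycycline samples and 11.5 to 12.9 CPM in DMSO samples. Of 4 tested among 6 such markers 2 rose, among them CD79A by 0.96, with MS4A1 at 0 counts. Natural killer cell markers summed to 24.8 to 27.4 and 17.4 to 21.4 CPM, with 2 of 3 tested among 6 higher, NKG7 by 0.49 and NCAM1 by 0.30, and NCR1 at 0 counts. Myeloid markers summed to 2.998 to 3.43 and 1.75 to 2.06 CPM, with 1 of 2 tested among 8 higher, MPO, and S100A8 at 0 counts. Stromal and endothelial markers summed to 48.4 to 54.4 and 40.5 to 40.7 CPM, with 2 of 2 tested among 5 higher, most of the sum being COL1A1, which rose by 0.31, and VWF rose as well, with COL1A2 and PECAM1 at 0 counts. Of 5 erythroid markers 0 were tested, and they summed to 0.0762 to 0.152 and 0.0873 to 0.198 CPM, with HBB at 0 counts, each sum in doxycycline and then DMSO samples. With GC content and length taken into account, NCAM1 (0.27, edgeR adjusted p = 0.0672) and COL1A1 (0.08, 0.236) did not pass. That model called higher 2 of 4 B cell, 1 of 3 natural killer cell, 1 of 2 myeloid and 1 of 2 stromal and endothelial markers. Of all tested genes it called 10.7% higher. The part of the marker differences in the results on class I genes was not tested.

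Counts of HLA genes carry limits of their own. HLA genes differ strongly between people and are alike among themselves, and the sources used here do not give how reads matching several HLA genes were counted. The levels of HLA-B, HLA-C, HLA-E, HLA-F and HLA-H, and the ratio of HLA-E to HLA-C, are therefore uncertain. The annotated spans of HLA-B and HLA-C also overlap on the same strand in GENCODE 29.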

How the data were processed

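RNA of 6 samples, 3 doxycycline and 3 DMSO, was read on a DNBSEQ platform from strand-specific libraries, per the labels' protocols. The authors deposited raw counts per gene without normalization. The tools listed, per the submitters' processing notes and without roles, are STAR 2.5.2a, DESeq2 1.12.4 and featureCounts, with hg19 as build. Neither the annotation nor the counting's strand setting was stated in the sources used here. The authors' deposited table of their own comparison gives for each gene a normalized mean (signal), the log2 fold change and its error, the Wald test's score, and raw and adjusted p-values.

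Counts were filtered with filterByExpr at its defaults, which left 15492 of 63677 genes, scaled with TMM and tested by the quasi-likelihood method of edgeR 4.0.16 in R 4.3.3, where the model held treatment alone. A gene was called where its Benjamini-Hochberg adjusted p over all tested genes was under 0.05. The test was checked on simulated counts. SE was taken as |log2 fold change| over the root of F, and 95% intervals use the t quantile of the moderated degrees of freedom. GC content and length came from the longest GENCODE 29 transcript, known for 97.1% of tested genes. Per library, deviations of log2 CPM (prior count 2) were fitted with natural splines of both, with 5 degrees of freedom each, and entered as an offset. DESeq2 1.42.0, other scalings and filters, left-out samples and a replicate block were alternatives; the DESeq2 fit matched the authors' deposited table to about 2e-07 in adjusted p.

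The 9 genes, the gene lists, the alternatives and the naming rule were chosen with earlier results of these data known. The text names MYC, the 9 genes, up to 3 called genes of each list by smallest p (the 2 most abundant where none was called), and the 5 most alike genes whose log2 CPM averaged 3 or more. Further list members named in the text were chosen after their values were seen. Lists have counts and medians and no test of their own. Values of some list members are not reported here.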

Additional observations from a re-analysis of the deposited data

How the results depend on the processing

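The counts of called genes among the 9 moved with the processing. Called higher were 4 of 9 under upper-quartile scaling, 4 under unscaled library sizes, 1 with the GC content and length offset, 1 with the replicate block and that offset together, and 1 to 2 when single samples were left out. Called lower were 1 of 9 with the offset, 1 with the block and offset together, and 0 to 1 without single samples. With the replicate block alone the counts were 2 higher and 0 lower. The share over all tested genes moved as well. Of 15492 tested genes, unscaled library sizes called 2758 higher and 1606 lower, and the block 2006 and 2200. The offset called 1609 of 15036 higher and 1701 lower. Without single samples, 1554 to 2022 of all tested genes were called higher and 1754 to 2344 lower. With the offset the direction turned for HLA-C (-0.030), B2M (0.11), TAP1 (-0.051) and TAPBP (-0.0080), and with the block and offset together for HLA-C (-0.031), B2M (0.11), TAP1 (-0.051) and TAPBP (-0.0076). The cause was not tested. No other alternative turned a direction for any of the 9 genes. Over all genes, 1585 were called lower with upper-quartile scaling and 1348 higher with DESeq2 (the same count as in the authors' deposited table, whose adjusted p-values the fit here matched to about 2e-07), against 2408 and 2137 with edgeR and TMM. Upper-quartile scaling called 2871 genes higher, and moved the median of all genes by 0.05 on the log2 scale, under the size of the HLA-E and NLRC5 changes. Pairing by replicate number was not seen, as deviations from the group means of same-numbered samples correlated at -0.06, -0.22 and 0.09. Only doxycycline replicate 3 correlated best with its own number. The largest correlations were 0.32, of doxycycline replicate 1 with DMSO replicate 2, and 0.24, of doxycycline replicate 2 with DMSO replicate 3. The block called 4206 genes against 4545 without it. Deviations within a group of 3 sum to 0 and the block costs degrees of freedom, so these values cannot exclude pairing. Leaving out single samples gave 3396 to 4366 calls. In the fit that dropped doxycycline replicate 1 together with DMSO replicate 2, 2 of the 9 were higher and 0 lower. That fit called 1621 of 15647 tested genes higher and 1915 lower. RLE size factors and both other filters kept 2 of the 9 higher and 0 lower. Summing all identifiers of a symbol could not change this, as the other identifiers of the 9 held 0 counts. HLA-F, at 90 to 144 counts a sample, had the widest interval of the 9.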
